A study of Rattus norvegicus with 8 samples.

Results

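The Clec4f+ C1q+ barcodes of rat liver immune cells were chosen by 4 limits on their transcripts. A barcode was a member if it held at least 500 unique molecular identifiers (UMIs, each standing for 1 captured transcript), under 20% of UMIs from genes whose symbols start with Mt-, at least 1 UMI of Clec4f and at least 5 UMIs of C1qa, C1qb and C1qc together. Of the 32170 barcodes that passed the UMI and Mt- limits, 881 were members and 31289 were not. Clec4f and the C1q genes chose the members, so their levels are a description. The fits over all genes include them, and nothing is read from a call on one of them.

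Kupffer cells are the resident macrophages of the liver. They sit in the sinusoids, take up particles and aged erythrocytes from the blood, recycle the iron of haem and secrete complement proteins. In rodents Clec4f, a C-type lectin, is restricted to them, whereas the C1q chains, which together form the recognition part of the classical complement pathway, are made by many macrophages. When resident cells are lost in a fatty liver, monocyte-derived macrophages with a lipid-handling profile of Gpnmb, Trem2 and Spp1 are known to appear beside them.

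The libraries came from 4 male Han Wistar rats. Animals NC1 and NC2 received the CSAA diet, defined in its L-amino acids and sufficient in choline. Animals PC1 and PC2 received the CDAA diet, which lacks choline and is used to induce fatty liver disease. Livers were pushed through filters, erythrocytes were lysed and immune cells were collected on a density gradient. Cells of each animal were loaded on the 10X Genomics Chromium system fresh and again after 3 weeks in DMSO cryopreservation, so the 8 libraries form 4 pairs and each diet rests on 2 animals. Fresh and preserved cells of an animal were processed on different days, and day and preservation cannot be told apart. The libraries held 18338700 to 26471843 UMIs in all, of which the members held 341712 to 2975735. No member barcode sequence occurred in more than 1 library.

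The label of Kupffer cells held for a minority of the members. Of the 881 members, 533 (60.5%) carried exactly 1 Clec4f UMI and 429 carried only 5 to 9 C1q UMIs. The 520 members with under 20 C1q UMIs held 6.52 C1q UMIs per 10000 UMIs, against 6.09 in the other passing barcodes. Their Cd5l level, a secreted scavenger receptor protein typical of resident macrophages, was 66.3 CPM (UMIs of a gene per 1000000 UMIs of a class of barcodes) against 48.5 CPM in the others. The 361 members with at least 20 C1q UMIs held 127.9 C1q UMIs per 10000 and 1605 CPM of Cd5l. These values pool libraries that differed. Members with under 20 C1q UMIs numbered 14, 34, 105 and 119 in the fresh libraries of NC1, NC2, PC1 and PC2. In their DMSO libraries they numbered 5, 45, 176 and 22. C1q in the other barcodes was at 231 to 338 CPM in the NC and 809 to 1012 CPM in the PC libraries, so the pooled comparison need not hold in each library. This limit of 20 was chosen after the values were seen, and nothing was tested on it. The plot of C1q UMIs per member shows the low and the high range in every library.

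**Figure D1:**
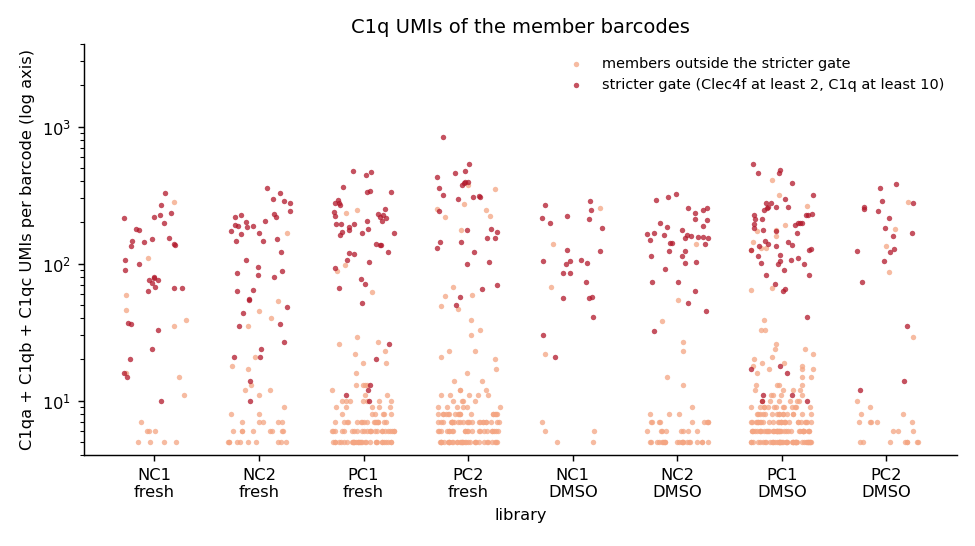
Each point is 1 of the 881 members, with the sum of its C1qa, C1qb and C1qc UMIs on a log axis by library, dark where it passes the stricter gate of at least 2 Clec4f and 10 C1q UMIs. Medians ran from 8 in the PC2 fresh and PC1 DMSO libraries to 99 in the NC1 DMSO library, and most members of the PC1 and PC2 fresh and PC1 DMSO libraries lie below 10.

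Because of this mixture, a stricter gate is set beside the rule where stated, of at least 2 Clec4f and at least 10 C1q UMIs. It held 301 of the 881 members, with 36, 43, 49 and 31 barcodes from the fresh libraries of NC1, NC2, PC1 and PC2 and 24, 39, 60 and 19 from the DMSO libraries of the same animals. Its barcodes carried a median of 151 C1q and 9 Clec4f UMIs. The 580 members outside it held 90.0 CPM of Clec4f, 17.2 C1q UMIs per 10000 and 120.3 CPM of Cd5l. This class was mixed, with a median of 7 C1q UMIs. It included 78 members with 1 Clec4f UMI and at least 20 C1q UMIs, of which 30 held at least 100.

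Just inside the rule, 148 members carried 1 Clec4f and 5 C1q UMIs. Just outside it, 230 barcodes carried 1 Clec4f and 4 C1q UMIs and 1126 carried 5 C1q UMIs and no Clec4f. These 3 groups held 5.81, 5.23 and 6.61 C1q UMIs per 10000 and 53.4, 35.2 and 47.9 CPM of Cd5l. A further 266 barcodes without a Clec4f UMI carried at least 20 C1q UMIs and stayed outside the rule. They held 2159 CPM of Gpnmb and 1575 CPM of Spp1, pooled over libraries, against 1643 and 783 CPM in the members of at least 20 C1q UMIs. By library they numbered 16, 22, 43 and 47 in the fresh and 19, 12, 52 and 55 in the DMSO libraries of NC1, NC2, PC1 and PC2, so most came from PC animals.

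Free RNA was measured in barcodes of at most 100 UMIs, which hold no cell. There, C1q made up 510, 692, 1223 and 1092 CPM in the fresh libraries of NC1, NC2, PC1 and PC2 and 370, 761, 1389 and 1355 CPM in their DMSO libraries. Clec4f made up 21.6 to 93.8 CPM. C1q in the free RNA was thus higher in every PC library than in every NC library. Among the 8526 T or B barcodes (at least 3 UMIs of Cd3d, Cd3e and Cd3g together, or of Cd79a), which should lack both genes, 310 were members and 91 passed the stricter gate. These 91 were 15 of 36, 19 of 43, 17 of 49 and 2 of 31 stricter-gate barcodes in the fresh libraries of NC1, NC2, PC1 and PC2. In their DMSO libraries they were 6 of 24, 11 of 39, 18 of 60 and 3 of 19. At least 5 C1q UMIs were found in 4.54 to 9.17% of T or B barcodes in the NC libraries and in 30.2 to 43.8% in the PC libraries. Lymphoid transcripts were common in the members too: at least 2 UMIs over 9 lymphoid genes were present in 846 members (96.0%), in 90.0% of the other barcodes and in 279 of the 301 barcodes of the stricter gate. No doublet caller was run, and 107 members held over 20000 UMIs.

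Within the stricter gate the further markers of Kupffer cells were present unevenly. Vsig4, a complement receptor, was detected in 148 of 301 barcodes (49.2%), Cd163, the haemoglobin scavenger receptor, in 109 (36.2%), Folr2, a folate receptor, in 191 (63.5%) and Adgre1, which encodes F4/80, in 204 (67.8%). These shares pool libraries that differed: Folr2 was detected in 37.3% of NC and 86.8% of PC barcodes, from 25.6 to 96.8% by library. Cd5l was detected in 258 (85.7%). Timd4, a receptor for phosphatidylserine on long-lived Kupffer cells, was detected in 19 barcodes (6.31%), and Marco, a scavenger receptor, in 6 (1.99%). Folr2 and Adgre1 were not particular to this gate. In the 266 barcodes with no Clec4f and at least 20 C1q UMIs, Folr2 was detected in 207 (77.8%) and Adgre1 in 174 (65.4%). Cd5l was detected there in 163 (61.3%), Vsig4 in 55 (20.7%) and Cd163 in 16 (6.02%). Those barcodes held a median of 13900.5 UMIs, against 10089 in the stricter gate. In the members outside the stricter gate Cd163 was detected in 10 of 580 (1.72%), against 0.409% of the other barcodes. These classes differed in depth, with median UMIs of 10457.5 and 4006, and held 1.71 and 0.854 CPM of Cd163. Cd163 stood at 0.461 to 8.16 CPM in the free RNA and at 31.4 to 282 CPM in the stricter gate.

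Detection was compared at equal depth as the expected share of barcodes with at least 1 UMI of a gene among 2000 UMIs drawn from each barcode without replacement. The T or B barcodes compared were those outside the stricter gate. Of the stricter-gate barcodes with at least 2000 UMIs, the expected share for Cd5l, over fresh and preserved libraries together, was 69.1% in the NC and 79.8% in the PC libraries, against 3.09 and 11.6% of T or B barcodes. Without thinning the shares were 76.8 and 93.7%, against 8.89 and 32.0%. The NC1 fresh library stood apart: its expected shares were 39.7% for Cd5l and 3.02% for Vsig4, against 73.6 to 84.4% and 17.6 to 56.6% in the other libraries. Its Cd5l level of 423.5 CPM was the lowest of the 8 libraries, the others lying at 1379 to 3107 CPM. Nkg7, a granule protein of lymphocytes, had expected shares of 64.6 and 68.1% in stricter-gate barcodes and of 68.2 and 76.4% in T or B barcodes. Thinning left out 14 NC and 3 PC barcodes of the stricter gate and 222 and 68 T or B barcodes. Median depths before thinning were 7155 and 13603 UMIs in the stricter gate and 5126 and 7001 UMIs in T or B barcodes.

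Among the barcodes of the stricter gate, Spearman's rho between Cd5l and Vsig4, each per UMI of the barcode, was 0.201 to 0.668 over the 19 to 60 barcodes of a library. Between Cd5l and Gpnmb it was -0.238 to 0.432, below 0 in both libraries of PC2. These values describe barcodes that share a library and its free RNA, and a UMI total by which both genes were divided. No p-value was computed.

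Levels in the members against the other passing barcodes are given as medians of the ratio over the 8 libraries, without a test. They are ranked among genes of at least 100 CPM in every library, in the members or in the stricter gate. Clec4f, which the rule used, was 38.0-fold higher in the members and 110.7-fold higher in the stricter gate. Cd163 (44.6-fold and 104.9-fold) and Vsig4 (23.6-fold and 55.9-fold) lay below 100 CPM in at least 1 library of both gates and were not ranked. Slc40a1, which encodes the iron exporter ferroportin, was 28.7-fold higher in the members and 74.0-fold in the stricter gate. Its level in the stricter gate was 285 to 1069 CPM, against 4.98 to 11.7 CPM in the other barcodes and 14.4 to 24.5 CPM in the free RNA. Cd5l was 23.2-fold and 45.6-fold higher and Rarres1 21.4-fold and 49.1-fold higher. Hmox1, the haem oxygenase that frees the iron, was 6.92-fold and 12.9-fold higher, with 863 to 1652 CPM in the stricter gate. Slc48a1, a transporter of haem out of the lysosome, was 3.55-fold and 7.51-fold higher.

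Further groups were found among the 25 genes with the largest ratios in either gate. Of complement, beside C1qa, C1qb and C1qc (28.0-, 27.7- and 32.1-fold in the stricter gate), Cfd, which encodes factor D of the alternative pathway, was 12.97-fold higher in the stricter gate, Fcna, a ficolin, 9.49-fold and Cfp, which encodes properdin, 4.59-fold. Of receptors, Axl, which binds dying cells, was 13.1-fold, the neonatal Fc receptor Fcgrt 18.1-fold and the mannose receptor Mrc1 20.5-fold higher. Of lipid handling, the phospholipid transfer protein Pltp was 12.4-fold and the nuclear receptor Nr1h3 (LXRα) 7.91-fold higher. Of lysosomal genes, Lgmn was 8.18-fold, Cd63 7.80-fold, Ctsd 5.45-fold and Npc2 5.36-fold higher. In the members outside the stricter gate the same ratios were 2.101 for Slc40a1, 1.96 for Cd5l, 1.67 for Hmox1 and 1.08 for Fcna. The lowest ratios were ranked in all members only, among genes of at least 1000 CPM. Of the 10 lowest there, Ccl5, a chemokine of lymphocytes, was at 0.405 in the stricter gate. Coro1a, Plac8 and Crip1 were at 0.505, 0.508 and 0.517 in that gate.

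Against the 1282 myeloid barcodes with Fcgr3a and Clec4a3 UMIs and no Cd3e, Cd79a or Siglech UMI, the stricter gate was 53.6-fold higher in Slc40a1, 39.7-fold in Cd5l and 43.7-fold in Vsig4. Csf1r, the receptor for the macrophage growth factor, was at a ratio of 0.920 and Cd68, a lysosomal macrophage protein, at 1.81. The plot of macrophage markers sets the members outside the stricter gate beside the other barcodes and the free RNA.

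**Figure D2:**
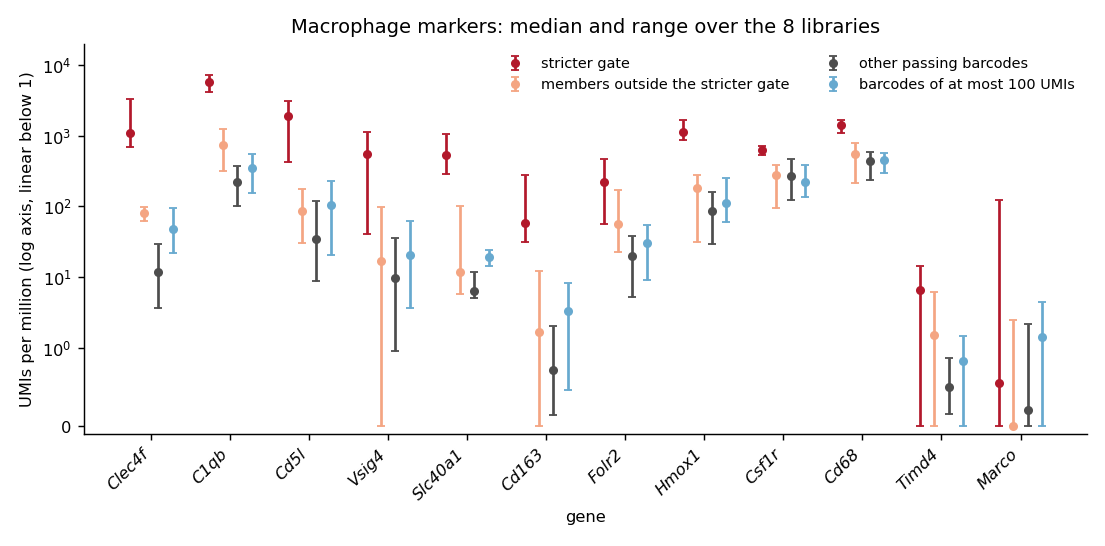
Points are medians and bars the lowest and highest of the 8 libraries, in CPM on a log axis that is linear below 1, for macrophage markers in each class of barcodes. Slc40a1 in the stricter gate (285 to 1069) lies above all libraries of the other passing barcodes (4.98 to 11.7), while Timd4 and Marco reach 0 in at least 1 library of the stricter gate.

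The share of members did not change consistently with preservation. Members made up 1.15, 1.96, 3.88 and 4.06% of passing barcodes in the fresh libraries of NC1, NC2, PC1 and PC2 and 0.928, 2.59, 6.43 and 1.04% in their DMSO libraries. The share rose in NC2 and PC1 and fell in NC1 and PC2. The mean difference was -0.0130 percentage points ± 2.31 (SD, n = 4, two-sided exact permutation of sign changes, p = 1, smallest possible p = 0.125). Exact 95% binomial intervals, which cover counting error only, were 3.48 to 4.70% and 0.758 to 1.40% for PC2 fresh and DMSO and 3.31 to 4.52% and 5.68 to 7.25% for PC1. Neither pair overlapped, and they differed in opposite directions. In the stricter gate the shares were 0.780, 1.04, 1.19 and 0.740% fresh and 0.675, 1.137, 1.54 and 0.450% preserved, with a mean difference of 0.0124 points ± 0.274 (exact permutation, p = 1).

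In the fresh libraries the share of members was higher in both PC animals than in both NC animals, by 2.41 percentage points (exact permutation of the 6 splits, p = 0.333, the smallest p that 2 against 2 animals can give). The stricter gate showed 0.0537 points (exact permutation, p = 1), with overlapping groups. With each barcode thinned to 1500 UMIs in 1 random draw before the gate was applied, the difference was -0.0945 points (exact permutation, p = 1). C1q in the free RNA was higher in the PC libraries and members of PC animals were deeper, with median UMIs of 10079 and 11778 against 8970 and 8835. The part of both in the share was not tested. The plot of shares shows both gates.

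**Figure D3:**
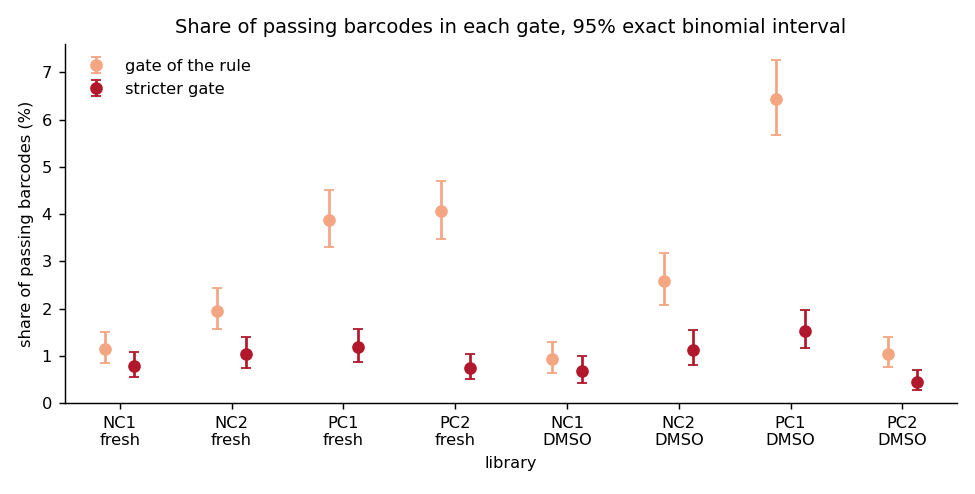
Points give the share of passing barcodes (%) in each library for the gate of the rule (pale) and for the stricter gate (dark), and bars the exact 95% binomial intervals, which cover counting error only. The rule gives 0.928 to 6.43% with the highest share in the PC1 DMSO library, and the stricter gate 0.450 to 1.54%.

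The number of genes in a member at equal depth differed little. The median expected number of genes in 1000 UMIs was 541, 526, 538 and 543 in the fresh and 545, 524, 529 and 555 in the DMSO libraries. The mean difference was 1.27 genes ± 9.23 (SD, n = 4, exact permutation, p = 0.75), and -5.48 in the stricter gate (exact permutation, p = 0.25). Without thinning, the medians were 2491, 2350, 2508 and 2735 genes fresh and 2173, 2263, 2503 and 2680 genes preserved, lower after preservation in 4 of 4 animals (exact permutation, p = 0.125). The other passing barcodes held 514 to 539 genes fresh and 500 to 537 genes preserved in 1000 UMIs.

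Preservation was then tested gene by gene on the UMIs summed over the members of a library, with the animal as a block. In 5976 genes tested, 23 (0.385%) were called at an adjusted p under 0.05 and at least a 2-fold change (quasi-likelihood test of edgeR with Benjamini-Hochberg adjustment), of which 14 (0.234%) were higher and 9 (0.151%) lower after preservation. In the stricter gate 12 of 3280 genes (0.366%) were called, 9 (0.274%) higher and 3 (0.0915%) lower. Both gates shared 9 genes, 39.1% of the first and 75% of the second list. Without the animal as a block no gene was called (308 genes at an unadjusted p under 0.05, against 690 with the block), and the adjusted p of Jun, Fos and Fosb was then 0.0516, 0.207 and 0.558. Leaving out NC1 raised the count to 45, and leaving out NC2, PC1 or PC2 lowered it to 10, 11 or 13.

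Of the immediate early genes tested, 5 of 18 rose in all members and 5 of 16 in the stricter gate. Fos, a transcription factor, was at 129, 62.0, 48.0 and 14.5 CPM in the stricter gate of the fresh NC1, NC2, PC1 and PC2 libraries and at 1043, 1607, 683 and 712 CPM in their DMSO libraries. All 4 preserved libraries lay above all 4 fresh libraries. The log2 change was 4.08 ± 0.24 (SE, adjusted p = 2.85e-07) in the stricter gate and 4.14 ± 0.32 (adjusted p = 1.61e-06) in all members. Jun, the partner of Fos in the AP-1 complex, was at 72.2, 52.2, 67.7 and 27.2 CPM fresh and at 599.9, 995, 234 and 268 CPM preserved in the stricter gate (log2 change 2.97 ± 0.26, adjusted p = 1.69e-05). Fosb was at 56.5 and 84.8 CPM in the fresh NC1 and NC2 libraries and had no UMI in the fresh PC1 and PC2 libraries. After preservation it was at 320, 991, 278 and 259.9 CPM (adjusted p = 5.65e-05). No size is given for Fosb, because the fresh PC libraries held no UMI. Klf6, a zinc finger factor, rose by a log2 change of 1.23 ± 0.22 (adjusted p = 0.0166), and lost the call in the stricter gate without NC1 (under 2-fold) or without PC1 (adjusted p = 0.143).

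Of the feedback inhibitors of signalling, 5 of 16 rose in all members and 3 of 11 in the stricter gate. Dusp1, a phosphatase that switches off MAP kinases, was at 188, 131, 39.5 and 27.2 CPM fresh and at 875, 850.1, 225 and 315 CPM preserved in the stricter gate (log2 change 2.64 ± 0.17, adjusted p = 3.82e-07). Zfp36, a protein that destabilises cytokine mRNA, rose by 1.17 ± 0.18 (adjusted p = 0.00598, but under 2-fold without NC1 and 0.0501 without NC2), and Rgs1, which dampens G protein signalling, by 1.35 ± 0.19 (adjusted p = 0.00227). Ppp1r15a, a stress-induced phosphatase subunit, was called in all members (log2 change 1.16 ± 0.15, adjusted p = 0.000708) but not in the stricter gate (0.91 ± 0.30, adjusted p = 0.297). Ccl3, a chemokine, was at 367, 199, 191 and 254 CPM fresh and at 785, 687, 605 and 720.0 CPM preserved (log2 change 1.53 ± 0.12, adjusted p = 6.05e-06).

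The median log2 change of the immediate early genes was 0.61 in all members and 0.59 in the stricter gate, and that of the feedback inhibitors 0.28 and 0.21, against medians of -0.00 over all genes tested in either gate. Of the chemokines 1 of 13 and 1 of 11 rose, in each case Ccl3. No gene was called in either gate among the lists of Kupffer identity, complement, scavenging, iron and haem, lysosome, lipid-associated macrophage, LXR and cholesterol, cytokine, heat shock, interferon-stimulated and cell cycle genes. Among the 17 tested identity genes the median was 0.14 in all members and 0.17 in the stricter gate. Cd5l was at 424, 1908, 1853 and 2305 CPM fresh and at 1379, 3107, 2321 and 1802 CPM preserved (log2 change 0.53, adjusted p = 0.401), and the fresh and preserved libraries overlapped. Of the 15 heat shock genes tested none was called, with a median of 0.04. Some other lists without a call in all members had medians of a size similar to or larger than that of the feedback inhibitors. The median was 0.31 for cell cycle genes (15 of 17 above 0) and 0.53 for markers of plasmacytoid dendritic cells (6 of 6 above 0). It was -0.31 for markers of the Fcgr3a and Clec4a3 myeloid barcodes (0 of 7 above 0) and -0.26 for NK cell markers (2 of 11 above 0). Neutrophil markers had the median furthest below 0, at -0.76 (0 of 3 above 0). In the stricter gate the medians in the same order were -0.04, 0.69, -0.14, 0.02 and -0.81. Of 2 neutrophil markers tested there 1 was called lower (S100a9). The part of other cells in these shifts was not tested.

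Few genes were lower after preservation. Vamp8, a SNARE protein of vesicle fusion, was at 75.3, 124, 106 and 99.8 CPM fresh and at 61.7, 40.8, 41.7 and 38.3 CPM preserved in the stricter gate (log2 change -1.21 ± 0.22, adjusted p = 0.0176). Without NC2, PC1 or PC2 it was not called (adjusted p = 0.129, 0.354 and 0.0675). RT1-Bb, a class II histocompatibility chain, fell in all members (log2 change -1.21 ± 0.26, adjusted p = 0.0281), in NC1, NC2 and PC1 but not in PC2, where it was at 1571 CPM fresh and 1672 CPM preserved. It was not called in the stricter gate (adjusted p = 0.383). S100a9, a neutrophil marker, fell in the stricter gate (log2 change -1.11 ± 0.19, adjusted p = 0.0163), where it was at 52.2 to 134 CPM fresh and 22.3 to 76.7 CPM preserved, below the free RNA of the same library in each of the 8 libraries (77.5 to 339 CPM).

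Fos and Jun were higher in every preserved than in every fresh library in the free RNA as well. In barcodes of at most 100 UMIs, Fos was at 73.1, 30.7, 28.2 and 28.1 CPM fresh and at 454, 776, 456 and 579 CPM preserved, and Jun at 20.9 to 37.3 and at 216 to 661 CPM. Fos in the stricter gate of the preserved libraries was above the free RNA of its own library in 4 of 4 animals. Ccl3 was not: it was at 866, 1635, 1146 and 1641 CPM in the free RNA of the preserved libraries, above the stricter gate in each. Rgs1 was below the free RNA in NC2, PC1 and PC2, Zfp36 in NC2, PC1 and PC2 and Dusp1 in PC1 and PC2. The part of free RNA in these changes was not tested. Among 2000 UMIs per barcode, the expected share of stricter-gate barcodes with Fos was 3.45 to 22.5% in the fresh and 63.2 to 88.3% in the preserved libraries. The plot of genes that changed with preservation sets the stricter gate beside the free RNA.

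**Figure D4:**
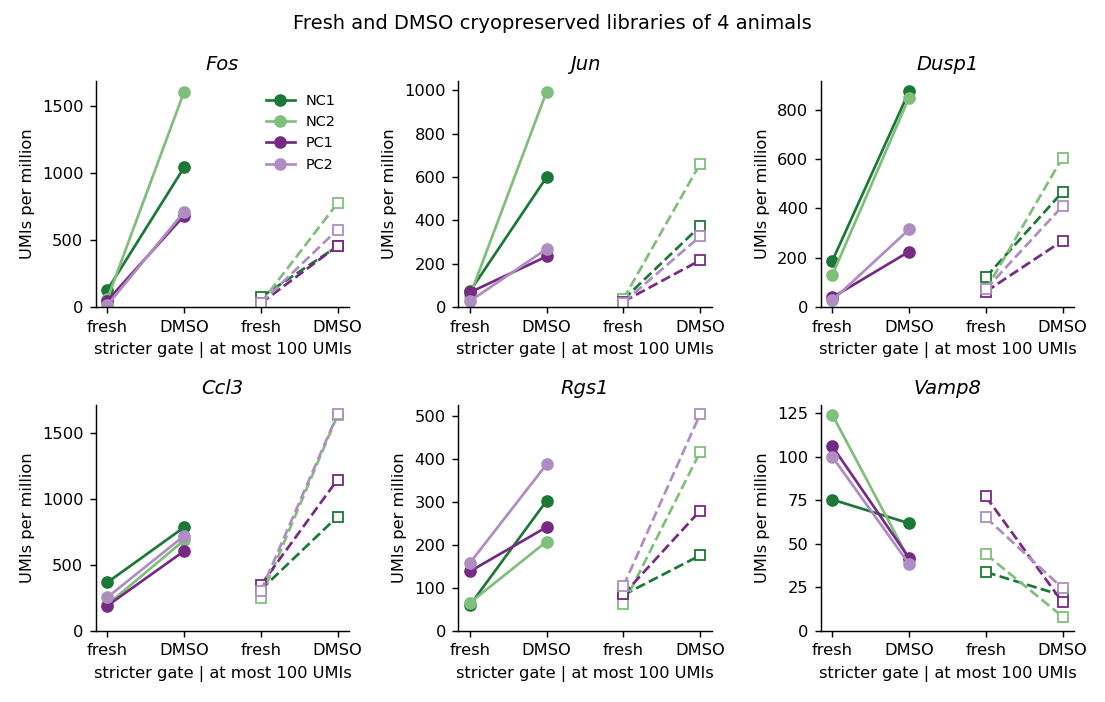
Points give CPM of 6 genes in the stricter gate (filled, solid lines) and in barcodes of at most 100 UMIs (open, dashed lines), for each animal fresh and after DMSO cryopreservation. Fos in the stricter gate rises from 14.5 to 129 fresh to 683 to 1607 preserved, and in the free RNA from 28.1 to 73.1 to 454 to 776.

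Promoter sequences were available for 5 of the 8 genes called higher in both gates (250 bases before the start of the gene, RefSeq, build GRCr8). They were searched on both strands for the cyclic AMP response element TGACGTCA, the AP-1 site TGANTCA and the CArG box of serum response factor, whose letters do not contain each other. Dusp1 holds a cyclic AMP response element 124 bases before the start, in the window chr10:17184603-17184852 (+ strand). Zfp36 holds a CArG box 32 bases before the start, in the window chr1:92799109-92799358 (- strand), and Klf6 holds another 201 bases before the start, in the window chr17:69458479-69458728 (- strand). Fosb and Rgs1 hold none of the 3 in this window. Of all 33469 promoters of the same length, 1.587% hold the cyclic AMP response element, 6.34% the AP-1 site and 1.497% the CArG box, so the matches are a description and no site was measured. The 3 promoters with a match are printed 5′ to 3′ on the strand of the gene, because these genes moved together, with the motif in capitals.
Dusp1: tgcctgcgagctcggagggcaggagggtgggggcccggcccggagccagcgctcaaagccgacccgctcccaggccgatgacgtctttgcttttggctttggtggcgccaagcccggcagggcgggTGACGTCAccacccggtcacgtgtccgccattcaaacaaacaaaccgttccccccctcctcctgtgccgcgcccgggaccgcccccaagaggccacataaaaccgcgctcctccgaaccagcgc
Zfp36: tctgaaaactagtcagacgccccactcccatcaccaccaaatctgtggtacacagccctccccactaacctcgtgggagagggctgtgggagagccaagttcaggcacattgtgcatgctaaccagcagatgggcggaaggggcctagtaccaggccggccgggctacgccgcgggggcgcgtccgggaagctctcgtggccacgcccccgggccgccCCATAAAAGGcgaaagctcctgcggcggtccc
Klf6: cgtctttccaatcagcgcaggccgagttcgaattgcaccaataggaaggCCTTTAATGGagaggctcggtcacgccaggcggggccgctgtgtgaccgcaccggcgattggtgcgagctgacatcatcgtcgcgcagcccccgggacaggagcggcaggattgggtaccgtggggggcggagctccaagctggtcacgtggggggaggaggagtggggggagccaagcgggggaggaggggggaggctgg

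Diet was compared in the 4 fresh libraries. In all members 140 of 7216 genes (1.94%) were called between PC and NC, 63 (0.873%) higher and 77 (1.07%) lower in PC, and 1 of the 77 was Clec4f, which the rule used and from which nothing is read. In the stricter gate 100 of 4260 genes (2.35%) were called, 54 (1.27%) higher and 46 (1.08%) lower. Both lists shared 75 genes, 53.6% of the first and 75% of the second. These p-values measure the spread between 2 animals of each diet. Members outside the stricter gate made up 17 of 53 and 38 of 81 members in NC1 and NC2 and 111 of 160 and 139 of 170 in PC1 and PC2, so the values of the stricter gate are given for single genes. Its median UMIs were 8039 and 7364 in NC1 and NC2 and 13592 and 16518 in PC1 and PC2. The stricter gate may itself hold a different mixture by diet: its median Clec4f UMIs were 8 and 15 in NC and 5 and 8 in PC. Barcodes with no Clec4f and at least 100 C1q UMIs numbered 4, 1, 24 and 30 in the fresh libraries of NC1, NC2, PC1 and PC2. They held 2683 CPM of Gpnmb, pooled over fresh and preserved libraries. The part of such a mixture in the diet comparison was not tested. Leaving out NC1 or NC2 raised the count in all members from 140 to 205 or 237. With 1 animal of a diet left out, its remaining animal was assumed to vary like the 2 animals of the other diet, which alone gave the spread, so such calls say little about the stability of a gene.

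Genes of lipid-associated macrophages were higher in PC. Of the 17 genes of this list, all of which were tested, 13 rose in all members and 12 in the stricter gate (median log2 changes 2.09 and 2.52, against -0.01 over all genes tested in all members). Gpnmb, a glycoprotein of lysosomes under lipid load, was at 160.0 and 176 CPM in the stricter gate of NC1 and NC2 and at 1835 and 1973 CPM in PC1 and PC2. Both PC libraries lay above both NC libraries (log2 change 3.45 ± 0.22, adjusted p = 1.96e-05). Lpl, the lipoprotein lipase, was at 3.14 and 9.78 CPM in NC and 399 and 399 CPM in PC (5.86 ± 0.38, adjusted p = 1.96e-05). Apoe, the apolipoprotein of cholesterol efflux, was at 141 and 22.8 CPM in NC and 3215 and 3199 CPM in PC (5.24 ± 0.48, adjusted p = 0.000399). Mmp12, the macrophage elastase, was at 22.0 and 45.7 CPM in NC and 428 and 1109 CPM in PC (4.44 ± 0.50, adjusted p = 0.000926).

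Fabp4, a fatty acid binding protein, was at 3.14 and 68.5 CPM in NC and 1605 and 1350.1 CPM in PC (5.32 ± 0.56, adjusted p = 0.000772). Spp1, osteopontin, had 3 UMIs in NC1 and none in NC2, against 239.9 and 1250 CPM in PC (adjusted p = 0.00337), a ratio of 142 with a 95% counting interval of 48.5 to 691. Trem2, a lipid receptor of macrophages, had 3 UMIs in both NC libraries together, against 137 and 259.5 CPM in PC (adjusted p = 0.000604), a ratio of 39.7 with an interval of 13.4 to 194. The tetraspanin Cd63 rose by 2.12 ± 0.23 and the lysosomal protease Ctsd by 2.30 ± 0.23 (adjusted p = 0.000782 and 0.000604). Of 21 lysosomal genes tested, 3 rose in all members (Cd63, Ctsd and Ctsb) and 4 in the stricter gate (also Ctsl). Ctsb was at 659 and 894 CPM in NC and 1955 and 2187 CPM in PC (1.36 ± 0.22, adjusted p = 0.00878). In all members it fell under 2-fold without NC2.

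Markers of other myeloid cells were called in both directions. Of the markers of the Fcgr3a and Clec4a3 myeloid barcodes, 1 of 7 was higher (Clec4a3) and 1 lower in PC (Fcgr3a) in all members, with a median of 0.47. Of 6 tested in the stricter gate none was higher and 1 lower (Fcgr3a, median 0.12). Of the monocyte markers, 2 of 6 tested were higher in all members (Cd14 and Vcan, median 0.41) and 1 of 4 in the stricter gate (Cd14, median 0.31), and none was lower. The 9 matched monocyte markers, led by Plac8, summed to 4364, 3333, 3889 and 3648 CPM in the stricter gate of NC1, NC2, PC1 and PC2, below the free RNA of each library (5501 to 7622 CPM), and Ccr2 had no UMI there. Of the neutrophil markers 1 of 5 was higher in all members (S100a8, median 0.93) and 0 of 3 in the stricter gate (median 0.86), where the 10 matched markers, led by S100a9, summed to 194 and 150.0 CPM in NC and 277 and 350.2 CPM in PC, below the free RNA of each library (400.0 to 592 CPM), and Cxcr2 had no UMI. The part of these cells in the diet comparison was not tested.

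Gpnmb, Apoe and Fabp4 were higher in PC in the free RNA as well. There, Gpnmb was at 39.0 and 28.3 CPM in NC and 303 and 349 CPM in PC, Apoe at 99.1 and 34.9 and at 559.6 and 1170 CPM, and Fabp4 at 56.8 and 28.9 and at 756 and 759.6 CPM. In the PC libraries, the stricter gate was above the free RNA for Gpnmb, Lpl, Apoe, Mmp12, Fabp4, Spp1, Trem2, Cd63 and Ctsd in both animals. Among 2000 UMIs per barcode, over fresh and preserved libraries, the expected share with Gpnmb was 23.5% of NC and 80.2% of PC barcodes of the stricter gate, against 1.79 and 25.5% of T or B barcodes outside it. For Lpl it was 0.995 and 40.1%, against 0.504 and 10.6%. For Fabp4 it was 7.53 and 67.2%, against 0.494 and 40.1%. For Spp1 it was 0.182 and 30.8%, against 0.0750 and 17.3%. Without thinning, Spp1 was detected in 1 of 142 NC and 119 of 159 PC barcodes of the stricter gate. RGD1562667 and the chemokine Ccl9, also called higher in both gates, were in PC at or below the free RNA of the same library (127 and 216 against 129 and 329 CPM, and 56.5 and 45.4 against 68.7 and 68.2 CPM). The part of free RNA in the diet comparison was not tested. In all members 4 genes were called with a more positive diet effect than in the other passing barcodes (Cd9, Blnk, Ube2c and Pik3c2b). Gpnmb, Lpl, Apoe, Mmp12, Fabp4, Spp1 and Trem2 were not among them. Gpnmb in the other barcodes ran from 6.32 to 299.6 CPM over the 8 libraries.

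**Figure D5:**
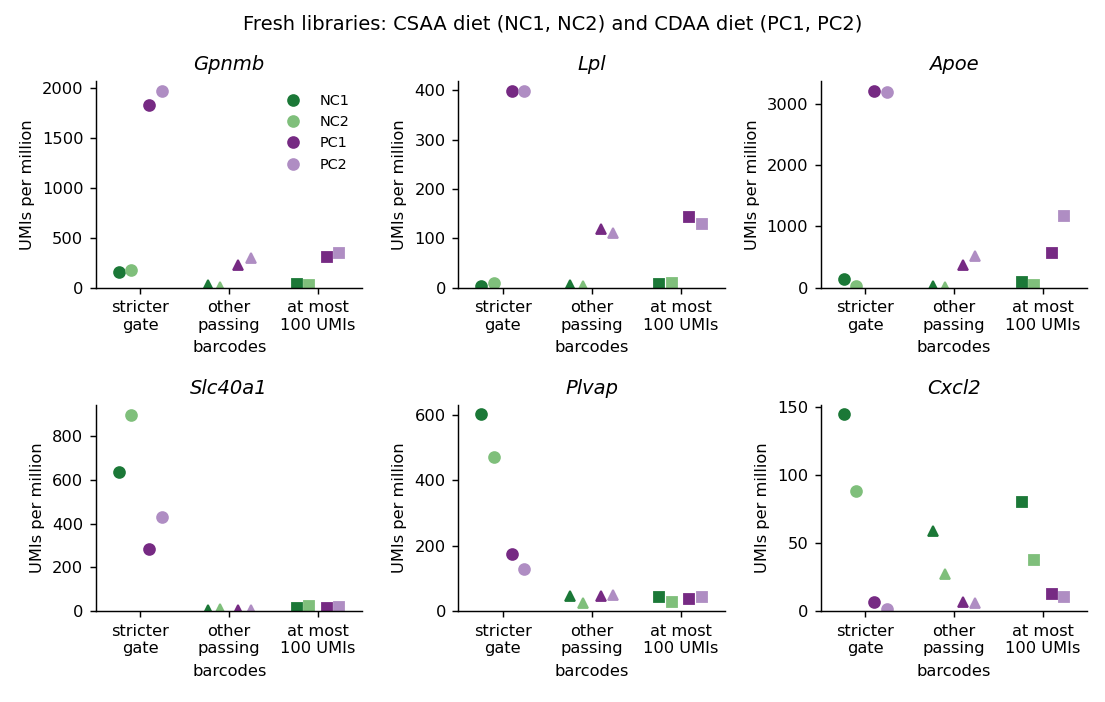
Points give CPM of 6 genes in the fresh libraries of the 2 NC and 2 PC animals, in the stricter gate, in the other passing barcodes and in barcodes of at most 100 UMIs. Gpnmb in the stricter gate is at 160.0 and 176 in NC and 1835 and 1973 in PC and at 303 and 349 in the free RNA of PC, and Slc40a1 in the stricter gate is at 637 and 897 in NC and 285 and 428 in PC, with 5.21 to 9.06 in the other passing barcodes.

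Of the Kupffer identity genes tested, 1 of 18 was higher and 1 lower in PC in all members and 1 of 17 was higher and 1 lower in the stricter gate (medians -0.10 and -0.02). Folr2 was at 109.8 and 71.8 CPM in NC and 322 and 470.0 CPM in PC (log2 change 2.07 ± 0.28, adjusted p = 0.00337). In all members it fell under 2-fold without NC2. Slc40a1 was at 637 and 897 CPM in NC and 285 and 428 CPM in PC (-1.17 ± 0.25, adjusted p = 0.0401), without overlap and with 14.4 to 23.5 CPM in the free RNA of these libraries. Among 2000 UMIs, the expected share of stricter-gate barcodes with Slc40a1 was 65.3 and 68.6% in NC and 37.7 and 43.1% in PC. In T or B barcodes outside that gate it was 1.03% in NC and 1.18% in PC, over fresh and preserved libraries together. Cd5l was at 424 and 1908 CPM in NC and 1853 and 2305 CPM in PC (0.76, adjusted p = 0.530), and the groups overlapped. Plvap, which encodes a protein of endothelial fenestrae, was at 602 and 473 CPM in NC and 174 and 131 CPM in PC (-1.86 ± 0.23, adjusted p = 0.00207), with 27.7 to 43.7 CPM in the free RNA. The 11 matched markers of sinusoidal endothelium, led by Cdh5, summed to 273, 215, 203 and 218 CPM in the stricter gate of fresh NC1, NC2, PC1 and PC2. This was above the free RNA of each library (231, 151, 169 and 127 CPM). Stab2, Clec4g and Ptprb had no UMI in that gate. Of 4 of these markers tested there none was called and 0 of 4 log2 changes were above 0 (median -0.30). In the preserved stricter gate the median of 3 was -0.83. The part of endothelial cells in the fall of Plvap was not tested.

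Chemokines moved both ways. Of 16 tested in all members 2 rose and 4 fell, and of 13 in the stricter gate 2 rose and 4 fell. Ccl24, an attractant of eosinophils, was at 113 and 561 CPM in NC and 5.65 and 7.26 CPM in PC (-5.73 ± 0.78, adjusted p = 0.00337). Cxcl2, a neutrophil attractant, was at 144 and 88.1 CPM in NC and 7.06 and 1.81 CPM in PC (-4.58 ± 0.49, adjusted p = 0.000772), and Cxcl1, its close relative, at 28.2 and 336 CPM in NC and 12.7 and 1.81 CPM in PC (-4.55 ± 0.99, adjusted p = 0.0408). In the free RNA Ccl24 was at 112 and 74.7 CPM in NC, as high as in the stricter gate of NC1. Among 2000 UMIs the expected share of stricter-gate barcodes with Ccl24 was 6.36 and 18.5% in NC and 0.987 and 1.12% in PC.

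Of 20 interferon-stimulated genes tested in all members 3 were lower and none higher in PC (median -0.76), and of 19 in the stricter gate 2 were lower (median -0.80). Irf7, a transcription factor of the interferon response, was at 229 and 277 CPM in NC and 100.2 and 96.2 CPM in PC (-1.41 ± 0.23, adjusted p = 0.00965), and Mx1, an antiviral GTPase, at 169 and 166 and at 57.9 and 83.5 CPM (-1.31 ± 0.26, adjusted p = 0.0261). The 22 genes of this list, led by Bst2, summed to 4662, 4146, 2200.2 and 3090.4 CPM in the stricter gate of NC1, NC2, PC1 and PC2. They summed to 3833, 2590.2, 2150.2 and 2422 CPM in the other barcodes and to 3695, 2571, 2312 and 2284 CPM in the free RNA, so NC1 was highest and both NC libraries lay above both PC libraries in each class. The part of free RNA was not tested. In all members Mx1 was not called without NC1 or without PC1 (adjusted p = 0.0509 and 0.115). Isg15 was called in all members only (adjusted p = 0.0205, and 0.233 in the stricter gate). Fcgr3a, an activating Fc receptor and a marker of the myeloid barcodes above, fell from 649 and 848 to 248 and 359 CPM (-1.36 ± 0.24, adjusted p = 0.0136). Cd14, the co-receptor for bacterial lipopolysaccharide, rose from 72.2 and 62.0 to 176 and 283 CPM (1.71 ± 0.29, adjusted p = 0.0120). Il1b fell in the stricter gate from 345 and 274 to 126 and 125 CPM (-1.35 ± 0.22, adjusted p = 0.00880). It was the 1 call among 7 cytokines tested there, with 5 log2 changes above 0 (median 0.25). Of 10 cytokines tested in all members 2 were higher and 1 lower (Il1rn, Tgfb1 and Igf1), and Il1b was not called. In the preserved stricter gate 1 of 7 was lower (Tgfb1).

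Of 18 immediate early genes tested in all members of the fresh libraries 2 were lower in PC, and of 16 in the stricter gate 3 were lower (Fosb, Jund and Btg2, medians -0.90 and -1.09). Fosb had no UMI in either PC library and was at least 29.5-fold lower than in NC in the stricter gate (against 3 UMIs over both PC libraries, adjusted p = 0.000998). Of the feedback inhibitors 2 of 18 were lower in all members, and 1 of 12 was higher (Rgs1) and 2 lower in the stricter gate (medians -0.22 and -0.45). Dusp1 fell by 2.27 ± 0.31 on the log2 scale (adjusted p = 0.00337) and Nfkbiz, a nuclear protein of the I kappa B family, by 2.11 ± 0.40 (adjusted p = 0.0191). Cd3d, Cd3e and Cd3g, chains of the T cell receptor complex, were called lower in PC in all members (3 of 7 T cell markers tested, median -1.36). None of 5 T cell markers was called in the stricter gate, with all 5 log2 changes below 0 and a median of -0.68 (-1.14 in the preserved libraries), and the 9 matched T cell markers, led by Lck, summed to 762.3, 636, 720 and 192 CPM in NC1, NC2, PC1 and PC2. LOC100360791, called lower in PC in all members, was high in NC1 alone, with 513 CPM against 55.7, 40.5 and 33.6 CPM, and with 434.5 CPM in the free RNA of that library.

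The preserved libraries of the same animals gave a further comparison of diets, which is no independent replicate. In the stricter gate 129 of 2852 genes (4.52%) were called there, 56 (1.96%) higher and 73 (2.56%) lower in PC. Of the 100 genes called fresh, 83 were tested after preservation, 81 had the same direction and 50 were called, 38.8% of the 129. In all members 71 of 5647 genes (1.26%) were called, 39 (0.691%) higher and 32 (0.567%) lower. Of the 17 lipid-associated macrophage genes 13 rose in the preserved stricter gate (median 2.64). Gpnmb was at 275 and 201 CPM in NC and 2114 and 1525 CPM in PC, Lpl at 11.2 and 3.71 and at 281 and 315 CPM, Slc40a1 at 992 and 1069 and at 394 and 298 CPM, and Plvap at 499 and 497 and at 145 and 192 CPM. Of 18 interferon-stimulated genes 8 were lower in PC (median -1.43). Of 16 Kupffer identity genes 1 was higher (Folr2) and 2 lower (Slc40a1 and Spic), with 4 of 16 log2 changes above 0 and a median of -0.16. Of 4 monocyte markers 2 were higher (Cd14 and Fcnb, median 0.86), and of 2 neutrophil markers none was called (median 1.504). The 1 platelet marker tested, Pf4, was higher (log2 change 2.32). Of 6 markers of the Fcgr3a and Clec4a3 myeloid barcodes 1 was lower (Fcgr3a, median 0.19). Of 9 NK cell markers none was called, with 9 of 9 log2 changes above 0 and a median of 0.66. In the fresh libraries none was called either, with 2 of 10 above 0 in the stricter gate (median -0.28). In all fresh members 10 of 11 were above 0 (median 0.48). Of 9 chemokines none was higher and 2 were lower (Cxcl9 and Ccl6), neither of which was called in the fresh stricter gate. Of 15 immediate early genes 5 were lower (Jun, Rhob, Egr1, Jund and Klf6, median -1.11) and of 10 feedback inhibitors 2 (Dusp1 and Zfp36, median -0.64). Of 13 genes of iron and haem tested in the preserved libraries 4 were lower in PC than in NC (Slc40a1, Slc48a1, Spic and Slc11a1). In the fresh libraries 1 of 15 was lower in PC (Slc40a1), and the difference between the counts was not tested.

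Whether the response to preservation differed between diets was tested as an interaction. In all members 5 of 6691 genes (0.0747%) were called, 1 (0.0149%) with a larger and 4 (0.0598%) with a smaller change in PC. With the stricter gate 8 of 3977 (0.201%) were called, all larger in PC, and Fosb was the gene common to both. The log2 change of Fosb was larger in PC than in NC (log2 difference 3.24 ± 0.53, adjusted p = 0.0133, in all members). Fosb was also called in the stricter gate (adjusted p = 0.000918), where no size is given because the fresh PC libraries held no UMI. In that gate both preserved PC libraries lay below both preserved NC libraries, so Fosb did not reach a higher level in PC. Mzb1, Jchain and LOC100361706, of which the former pair belong to plasma cells, were high in the NC1 DMSO library, with 73.2, 257 and 64.4 CPM in the members against 0 to 16.8 CPM in its stricter gate. Leaving out PC1 or PC2 left no call (170 and 158 genes at an unadjusted p under 0.05), leaving out NC1 left 2 and leaving out NC2 gave 27.

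Whether the members responded to preservation differently from other barcodes was tested within libraries. Against all other passing barcodes 2 of 10857 genes (0.0184%) were called, both weaker in the members: Fosb (log2 difference -1.82 ± 0.24) and Jun (-1.02 ± 0.14, adjusted p = 0.00365 for both). In the stricter gate no gene of 10658 was called (473 at an unadjusted p under 0.05). Jun was at -0.81 ± 0.19 there (adjusted p = 0.594). Fosb had an adjusted p of 0.511, without a size because its fresh PC libraries held no UMI in that gate. DESeq2 called none in all members (104 at an unadjusted p under 0.05), and without NC2 or without PC1 none was called either (412 and 519). Jun in the other barcodes was at 38.1, 28.4, 29.5 and 23.6 CPM fresh, below the members in each library, and at 399, 649, 262 and 426 CPM preserved.

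Against the Fcgr3a and Clec4a3 myeloid barcodes 6 of 6048 genes (0.0992%) were called, all with a more negative change in the members, and 3 of 5111 (0.0587%) in the stricter gate. The 3 genes common to both were Mmp12, Ubd and Folr2. Folr2 in the myeloid barcodes was at 4.16, 6.90, 29.8 and 41.3 CPM fresh and at 11.2, 10.6, 94.1 and 70.8 CPM preserved, against 110, 71.8, 322 and 470.0 and 157, 55.7, 280 and 307 CPM in the stricter gate (log2 difference -1.56 ± 0.24, adjusted p = 0.00669). Mmp12 in the myeloid barcodes of PC1 and PC2 was at 54.3 and 112 CPM fresh and at 215 and 169 CPM preserved, and in the stricter gate at 428 and 1109 and at 443 and 596.5 CPM (-1.71 ± 0.21, adjusted p = 0.000607). Ubd, a ubiquitin-like protein, was at 31.4, 307, 9.88 and 52.6 CPM fresh and 426, 52.0, 5.49 and 0 CPM preserved in the stricter gate, so its direction differed between animals. Free RNA of Folr2 in the PC libraries was at 46.0 and 41.9 CPM fresh and 55.1 and 42.3 CPM preserved, and its part was not tested. Leaving out NC1 or NC2 left no call in all members (340 and 282 genes at an unadjusted p under 0.05).

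The diet effect was compared with that in the other barcodes in the fresh libraries. In all members 59 of 11402 genes (0.517%) were called, 4 (0.0351%) with a more positive and 55 (0.482%) with a more negative difference in the members. With the stricter gate 10 of 11236 (0.0890%) were called, 2 (0.0178%) more positive and 8 (0.0712%) more negative, of which 8 were also called in all members. In each gate 3 of the calls were C1qa, C1qb and C1qc, which the rule used and from which nothing is read. The median over all genes tested was 0.04 in all members and 0.13 in the stricter gate. Fcna was at 511, 458, 130.5 and 163 CPM in the members of NC1, NC2, PC1 and PC2 and at 58.5, 56.2, 55.9 and 74.0 CPM in the other barcodes (log2 difference -1.89 ± 0.12, adjusted p = 1.34e-05). It was at 684, 1158, 262 and 430.1 CPM in the stricter gate, where the difference was -1.49 ± 0.25 and not called (adjusted p = 0.111). Ccl6, a chemokine that was among the most abundant in the members, was at 3272, 2255, 1451 and 1686 CPM in the members and at 533, 369, 699 and 841 CPM in the others (-1.58 ± 0.07, adjusted p = 1.04e-06, stricter gate -1.20 ± 0.24, adjusted p = 0.229). Cd9, a tetraspanin, differed the other way (1.36 ± 0.17, adjusted p = 0.00205), at 52.7, 101, 286 and 384 CPM in the members and 102, 186, 184.5 and 321 CPM in the others. Pik3c2b, a lipid kinase, was called in both gates (2.26 ± 0.36, adjusted p = 0.0110, and 2.98 ± 0.39, adjusted p = 0.0499), but not in all members without NC1 or without PC1 (0.0965 and 0.0758). Leaving out NC1 or PC1 lowered the count to 37 or 34. As members outside the stricter gate were more frequent in PC, the weaker level of Fcna and Ccl6 in the members of PC animals moved with the composition of the members, whose part was not tested.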

How the data were processed

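Per the labels, the authors used bcl2fastq 2.17.1.14 for demultiplexing and Cell Ranger 2.1.1 with STAR for UMI counting, on Rnor6.0 with Ensembl annotation. The deposited matrices are raw UMI counts of 32754 genes in all 737280 barcodes, without normalization, cell selection or doublet removal.

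Sums and descriptions were made in Python 3.11.15 (scipy 1.17.1, pandas 2.3.3, numpy 2.4.6) and figures in matplotlib 3.10.9. The counts of members were summed per library and fitted with edgeR 4.0.16 in R 4.3.3 (TMM, filterByExpr, glmQLFit with legacy set to FALSE, quasi-likelihood test), with the animal as a block for preservation. The same animal gave both libraries of a pair, and deviations of a pair from the group means correlated at 0.359, 0.470, 0.461 and 0.550. Thresholds were an adjusted p under 0.05 over all genes tested and a 2-fold change. The fits were tested on simulated data. DESeq2 1.42.0 was an alternative. SE is the log2 change divided by the root of F. Levels are CPM within a class of barcodes. Detection at equal depth is a hypergeometric expectation, without random draws. No doublet caller was run, and intervals cover counting error only. Every library kept at least 19 barcodes in the stricter gate.

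The members, the 29 gene lists and the tests were chosen with earlier results of these data known, so they are no independent support. Of 450 listed symbols 13 were not in the files. Named genes were the markers, the 10 largest rises and 10 largest falls of at least 50 CPM on average with the same direction in 4 of 4 animals (preservation) or without overlap (diet), the 2 most abundant and up to 4 called members of each list, Fos, Fosb and Jun, and up to 5 called genes per direction of each interaction. Against the other barcodes they were the 25 highest ratios of genes of at least 100 CPM and the 10 lowest of genes of at least 1000 CPM.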

Additional observations from a re-analysis of the deposited data

Results flagged for a closer look

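The log2 change of Fos with preservation in the members was 2.11 in NC1 and 4.83, 4.58 and 5.05 in NC2, PC1 and PC2. The gap of NC1 to the nearest animal was 0.840 of the range, above Dixon's 95% critical value for 4 values. It was 1 of 16 sets of 4 values examined, and chance gives about 1 in 20. Fos was at 179 CPM in the fresh members of NC1, against 19.8 to 35.5 CPM in the other fresh libraries. In the stricter gate NC1 changed by 3.01 and NC2, PC1 and PC2 by 4.66, 3.81 and 5.53, and the gap of the outermost animal was 0.345 of the range, below the limit.

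The response to preservation differed between diets for 5 genes of the members: Fosb with a log2 difference of 3.24, LOC100361706 with -4.46, Mzb1 with -4.97, Ube2c with -2.08 and Jchain with -4.12. In the stricter gate Fosb had no UMI in the fresh PC libraries and was lower in the preserved PC than in the preserved NC libraries. Ube2c, a cell cycle gene, was at 134.6 and 201 CPM in the preserved NC and at 62.5 and 134.4 CPM in the preserved PC libraries.

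The response to preservation differed between members and other passing barcodes for 2 genes, Fosb (-1.82) and Jun (-1.02). It differed from the Fcgr3a and Clec4a3 myeloid barcodes for 6 genes, of which the 5 with the smallest p were Jun (-1.17), Mmp12 (-1.25), Ubd (-2.53), Fosb (-1.94) and Folr2 (-1.26). Ubd was carried by different libraries, with 222 CPM in NC1 DMSO and 115 CPM in NC2 fresh members.

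The diet effect in fresh libraries differed between members and other barcodes for 59 genes. Of these, 3 were C1qa, C1qb and C1qc, which the rule used and from which nothing is read. The named ones were Cd9 (1.36), Blnk (1.31), Ube2c (1.68), Pik3c2b (2.26), Ccl6 (-1.58) and Fcna (-1.89).

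Outside the comparisons, C1q transcripts were present in barcodes of at most 100 UMIs, from 369.9 CPM in NC1 DMSO to 1389 CPM in PC1 DMSO. A set of 266 barcodes without a Clec4f UMI carried at least 20 C1q UMIs.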

How the results depend on the processing

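The 23 genes called with preservation became 13 with DESeq2, 79 without the 2-fold minimum, 12 in the stricter gate and none without the replicate block (308 at an unadjusted p under 0.05), and 10 to 45 with 1 animal left out (24, 7, 9 and 11 in the stricter gate without NC1, NC2, PC1 and PC2). The 140 genes of the diet comparison became 82 with DESeq2, 53 without a filter on low counts, 71 in the DMSO libraries and 110 to 237 with 1 animal left out. The 5 genes of diet by preservation became 0 with DESeq2 (23 at an unadjusted p under 0.05), 3 without a filter, 1 with at least 5 UMIs in every sum, 8 in the stricter gate, 0 without the replicate block (206) and 0 to 27 with 1 animal left out. Against other barcodes the 2 genes became 1 with DESeq2 size factors, 0 with DESeq2 (104), 1 with at least 5 UMIs, 0 in the stricter gate (473), 1 without the replicate block, 7 with legacy set to TRUE and 0 to 4 with 1 animal left out. Against the myeloid barcodes the 6 genes became 0 with DESeq2 (33), 0 without a filter (428), 1 with at least 5 UMIs, 12 without the 2-fold minimum, 3 in the stricter gate, 0 without the replicate block (236) and 0 to 7 with 1 animal left out. The 59 genes of the diet effect against other barcodes became 118 with at least 5 UMIs, 100 without the 2-fold minimum, 10 in the stricter gate, 110 with legacy set to TRUE and 34 to 71 with 1 animal left out.

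The share difference with preservation of -0.0130 points became 0.0124 in the stricter gate, 0.0606 with at least 1000 UMIs, 0.0965 with the rule of Cell Ranger, 0.171 with the gate on thinned barcodes and -0.868 to 0.988 with 1 animal left out. That with diet of 2.41 points became -0.112 without barcodes with a lymphoid mark, -0.0945 with the thinned gate and 2.01 to 2.82 with 1 animal left out. Genes per member changed by -5.48 in the stricter gate, -2.59 at 2000 UMIs, -116 unthinned and -2.33 to 4.90 with 1 animal left out. The cause of these changes was not tested.

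Of the 12 named genes called with preservation, none changed direction under any setting, and Fos, Fosb, Jun, Dusp1, Rgs1 and Ccl3 lost the call only without the replicate block. Of 44 named genes called with diet, 13 were called under every setting in which they were tested, including fits with 1 animal of a diet left out, in which the other diet alone gives the spread (Spp1, Fabp4, Lpl, RGD1562667, Trem2, Mmp12, Gpnmb, Cd63, Ctsd, Ccl9, Cxcl1, Ccl24 and Slc40a1). Ccl9, Cxcl1 and Ccl24 had no call in the stricter gate of the DMSO libraries, where 9 of 22 listed chemokines were tested, so fewer settings cover them. Ube2c reversed, from 1.11 to -0.92 in the DMSO libraries, -0.26 with both libraries of an animal summed and -1.09 in the stricter gate of the DMSO libraries. In the diet comparison the numbers of the animals name no pairs (correlation of deviations 0.0116). Fits of diet with a replicate block, in the members or against other barcodes, left 140 and 50 calls. The fits without barcodes with a lymphoid mark were not run, since 35 members remained. The settings legacy TRUE, at most 20000 UMIs, and the stricter gate with an animal left out or in the DMSO libraries were chosen after seeing the data.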
